A study of Mus musculus with 12 samples.

Results

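The 9 mesenchymal identity transcription factors described here are Snai1, Snai2, Twist1, Twist2, Zeb1, Zeb2, Prrx1, Prrx2 and Sox4. They were taken by gene symbol from a table of 56748 genes, in which each symbol was found, and all 9 were among the 16465 genes with enough counts to be tested. RNA was sequenced from 12 libraries of wild-type 10T1/2 cells (C3H/10T1/2, an established mouse mesenchymal progenitor line). The 4 col1 libraries came from hydrogels of 12 kPa that carried 0.05 mg/ml of type I collagen. The 4 col1-ACLP libraries came from cells on the same collagen polymerized with 30 nM aortic carboxypeptidase-like protein (ACLP), a secreted collagen-binding matrix protein. The 4 col1-ACLP+SB libraries came from cells on that ACLP-containing collagen with 5 µM SB431542, an inhibitor of the TGFβ receptor kinase ALK5. Cells of all groups spent 1 h in suspension before the 18 h of culture in 0.5% serum (the sample records give that serum for the suspension too, the methods give none there). The groups share 1 cell line, and no group here received SB431542 on collagen without ACLP.

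These genes encode transcription factors that set and keep the mesenchymal state in the embryo and are switched on in epithelial cells that turn mesenchymal. SNAIL (Snai1, Snai2) and ZEB (Zeb1, Zeb2) proteins are zinc finger repressors that bind E-boxes of the form CACCTG and recruit corepressors, with E-cadherin as their best known target. TWIST proteins are basic helix-loop-helix factors that bind DNA as dimers with E proteins. PRRX proteins are homeodomain factors of limb and craniofacial mesenchyme, and Sox4 is an HMG-box factor downstream of TGFβ. Fibroblast-like cells such as 10T1/2 are already mesenchymal, so the comparisons ask how the levels of these factors differed between collagen surfaces.

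In the table, whose coordinates are those of GRCm39, the zinc finger genes were Snai1 (ENSMUSG00000042821) at chr2:167380115-167384734 on the plus strand, Snai2 (ENSMUSG00000022676) at chr16:14523716-14527249 on the plus strand and Zeb2 (ENSMUSG00000026872) at chr2:44873644-45007407 on the minus strand, with Zeb1 (ENSMUSG00000024238) as the other ZEB gene. The bHLH genes were Twist1 (ENSMUSG00000035799) at chr12:34007670-34009828 on the plus strand and Twist2 (ENSMUSG00000007805) at chr1:91729183-91775750 on the plus strand. The homeobox genes were Prrx1 (ENSMUSG00000026586) at chr1:163072688-163141279 on the minus strand and Prrx2 (ENSMUSG00000039476) at chr2:30724984-30771263 on the plus strand, and the HMG-box gene Sox4 (ENSMUSG00000076431) at chr13:29132902-29137696 on the minus strand. The counts are given per gene, so isoforms were not separated.

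The upstream sequences of 3 factors are shown because their start sites lie within 30 bases of each other in the deposited table and in the GENCODE vM39 annotation, and because Snai1 did not pass the test on col1-ACLP while Twist1 and Sox4 were lower. Zeb1 and Twist2 also have start sites that close, and their windows are described but not shown. Each run is the 250 bases before the start of the annotated transcript in GRCm39, written 5′ to 3′ on the strand of the gene, with E-boxes (CANNTG) in capitals. The Snai1 window is chr2:167379863-167380112 on the plus strand, the Twist1 window chr12:34007395-34007644 on the plus strand and the Sox4 window chr13:29137697-29137946 on the minus strand.
Snai1: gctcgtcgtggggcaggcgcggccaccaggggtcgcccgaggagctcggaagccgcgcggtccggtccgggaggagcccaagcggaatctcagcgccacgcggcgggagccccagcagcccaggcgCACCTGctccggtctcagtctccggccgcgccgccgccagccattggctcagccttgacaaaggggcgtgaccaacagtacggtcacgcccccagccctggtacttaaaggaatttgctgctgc
Twist1: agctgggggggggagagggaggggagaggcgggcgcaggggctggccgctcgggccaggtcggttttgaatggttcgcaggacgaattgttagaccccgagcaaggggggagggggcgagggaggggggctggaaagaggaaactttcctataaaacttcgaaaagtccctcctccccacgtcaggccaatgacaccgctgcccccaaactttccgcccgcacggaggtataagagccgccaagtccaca
Sox4: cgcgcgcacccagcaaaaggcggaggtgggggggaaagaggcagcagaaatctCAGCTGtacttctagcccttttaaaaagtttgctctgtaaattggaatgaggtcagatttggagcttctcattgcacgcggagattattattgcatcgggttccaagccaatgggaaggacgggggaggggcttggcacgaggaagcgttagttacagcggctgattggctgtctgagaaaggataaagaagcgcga

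The Snai1 window held 1 CACCTG, the E-box preferred by SNAIL and ZEB proteins, starting 124 bases before the transcript. The Sox4 window held 1 E-box of another form, starting 197 bases before the transcript, and the Twist1 window held none. Among all 9 factors, CACCTG was found on either strand in the windows of Snai1 and Zeb1, so in 2, with 2 copies in Zeb1, which was lower on col1-ACLP (225 and 67 bases before the transcript), and any CANNTG, which includes CACCTG, in 4. Among 16382 windows of tested genes, 16.1% held CACCTG and 61.1% held CANNTG. The other letters searched, CATCTG (11.8% of windows) and the homeodomain core TAATTA (3.51% of windows), were in none of the 9. For Snai2, Zeb2, Prrx1 and Prrx2 the table and the annotation place the gene start 291 to 10087 bases apart, so their windows may not lie at the start used in these cells. The genome is a reference assembly and not that of the C3H strain, and a match of letters is not a binding site.

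The deposited counts ranged from 29246154 to 52201922 per library. In a principal component analysis, col1 replicate 2 stood apart from the other 11 libraries on the first component (-86.7, against -11.1 to 20.6). Without it the same numbers of factors were called in each comparison. The cells carried the RNA of mesenchymal cells: all 10 mesenchymal markers (Pdgfra, Pdgfrb, Thy1, Col1a1, Col1a2, Col3a1, Vim, Eng, Cd44 and S100a4) were tested and summed to 33568 to 34745 CPM (counts scaled to the library total by the TMM method) on col1, 43494 to 52419 CPM on col1-ACLP and 40163 to 45742 CPM on col1-ACLP+SB. The sum is carried by collagen genes such as Col1a1 (11727 to 24445 CPM over the 12 libraries), and not every marker was higher on col1-ACLP. Among others, Pdgfrb (483 CPM on col1 and 437 CPM there) and S100a4 (15.1 and 10.7 CPM) were lower. Pdgfra ran from 230 to 454 CPM over the 12 libraries, and the paper lists it among transcripts suppressed by collagen-bound ACLP. The 8 epithelial markers summed to 2.34 to 4.84 CPM, and Epcam had no count in any library. Epithelial, endothelial, leukocyte, skeletal muscle, adipocyte and neural markers each summed to at most 16.1 CPM, the highest value being neural on col1-ACLP (11.5 to 16.1 CPM, against 7.14 to 10.7 CPM on col1). In bulk RNA a lower level in every cell and a lower share of expressing cells cannot be told apart.

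Levels were first compared between the factors per kilobase of the deposited gene length, as FPKM, which is CPM divided by that length. The order of the genes and the shares within pairs given below depend on that length. On col1, Sox4 was highest at 111 ± 5.37 FPKM (SD, n = 4), followed by Snai1 at 72.4 ± 4.56 and Prrx1 at 45.9 ± 1.53 FPKM. Zeb1 (24.8 ± 0.978), Prrx2 (23.7 ± 1.13) and Snai2 (21.9 ± 0.926) came next. Zeb1 and Prrx2 overlapped in their libraries, as did Prrx2 and Snai2. Below them lay Twist1 at 16.4 ± 1.27 and Zeb2 at 5.87 ± 0.397 FPKM, and Twist2 was lowest at 0.298 ± 0.124 FPKM. Within the family pairs on col1, the gene with the higher mean was Snai1 over Snai2, Twist1 over Twist2, Zeb1 over Zeb2 and Prrx1 over Prrx2.

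**Figure D1:**
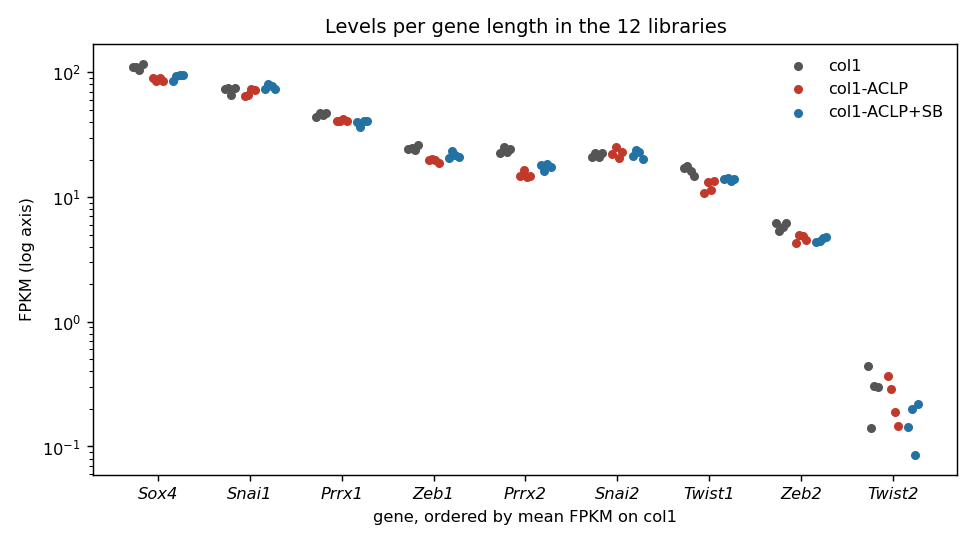
FPKM on a log axis for each of the 9 factors (ordered by the mean on col1), with 1 point per library and 4 libraries per group. Sox4 and Snai1 are at the top in all 3 groups, Twist2 lies below 0.5 FPKM, and the Zeb1 and Prrx2 points move below those of Snai2 on col1-ACLP.

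On col1-ACLP the order of the middle group changed. Snai2 (22.7 ± 1.83 FPKM, SD, n = 4) was then 4th, Zeb1 (19.6 ± 0.666) 5th and Prrx2 (15.1 ± 0.906) 6th, and no neighbours in the order overlapped. On col1-ACLP+SB the order was that of col1-ACLP, with Snai2 (22.2 ± 1.62 FPKM) and Zeb1 (21.7 ± 1.21 FPKM) overlapping. The level of RNA summed over the 9 factors was 1588 to 1719 CPM without ACLP (col1), 1355 to 1406 CPM on col1-ACLP and 1375 to 1458 CPM with SB431542. Both ACLP groups lay below col1 in this sum, with no library overlapping.

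To ask how ACLP in the collagen changed these factors, col1-ACLP was compared with col1. Of the 9 factors, 6 were lower (Prrx2, Twist1, Zeb1, Sox4, Zeb2 and Prrx1), 0 were higher and 3 (Snai1, Snai2 and Twist2) did not pass an adjusted p of 0.05 by edgeR's quasi-likelihood test, adjusted over all tested genes after Benjamini and Hochberg. Over all tested genes, 8.41% were lower and 9.52% higher, and among genes of at least 10 CPM, the range of every factor but Twist2, 12.5% were lower and 14.8% higher. The same fit called 6 of 9 at an unadjusted p under 0.05, where 28.3% of all genes were. The median log2 fold change of the 9 factors was -0.34, against -0.0099 over all tested genes. The changes were small: only Prrx2 was also past 0.58 in the size of its log2 fold change, the threshold of the study's methods, which 2.36% of genes were in the lower direction. In all 6 factors called lower, every col1-ACLP library lay below every col1 library, as was the case for 10.3% of all tested genes. The 3 uncalled factors overlapped between the groups.

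Prrx2, one of the paired homeodomain factors of skeletal and craniofacial mesenchyme, had the lowest log2 fold change of the 9. It measured 44.2, 49.0, 45.1 and 47.5 CPM in the col1 libraries and 28.96, 32.3, 28.3 and 29.1 CPM in the col1-ACLP libraries. The highest col1-ACLP library was far below the lowest col1 library. Its log2 fold change was -0.65 (SE 0.073, 95% confidence interval -0.80 to -0.50, adjusted p = 2.43e-07), so the level fell by 36.1%. Prrx1, its paralog, had the higher level per length (45.9 FPKM against 23.7 FPKM on col1) and the smaller estimated change. It measured 486, 521, 503 and 522 CPM on col1, against 449, 454, 464 and 452 CPM on col1-ACLP, a narrow but complete separation. Its log2 fold change was -0.16 (SE 0.044, adjusted p = 0.0104 by edgeR's quasi-likelihood test), a fall of 10.5%.

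Both ZEB genes were lower by about the same amount. Zeb1, a zinc finger and homeodomain repressor, measured 250.1, 255, 246 and 269 CPM on col1, against 202, 208, 202 and 192 CPM on col1-ACLP. Its 4 col1-ACLP libraries all lay under the lowest col1 library. The log2 fold change was -0.34 (SE 0.049, adjusted p = 9.87e-06). Zeb2, its paralog, measured 125, 108, 116 and 125 CPM on col1, against 86.9, 100.1, 98.1 and 91.0 CPM on col1-ACLP. Its groups were closer, with the highest col1-ACLP library at 100.1 CPM and the lowest col1 library at 108 CPM, and its log2 fold change was -0.34 (SE 0.060, adjusted p = 1.95e-04 by edgeR's quasi-likelihood test).

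The SNAIL genes, which encode repressors of the same E-boxes, did not pass the test. Snai1 measured 120.1, 122, 106 and 121 CPM on col1, against 105, 108, 118 and 117 CPM on col1-ACLP. Snai2, also called Slug, measured 42.8, 46.0, 42.4 and 45.6 CPM on col1, against 44.7, 50.7, 41.9 and 46.5 CPM on col1-ACLP. In both genes the libraries of the groups were interleaved. The log2 fold change of Snai1 was -0.068 (95% confidence interval -0.19 to 0.051, adjusted p = 0.497 by edgeR's quasi-likelihood test). That of Snai2 was 0.057 (95% confidence interval -0.094 to 0.21, adjusted p = 0.689), so falls of the size seen in the ZEB genes lie outside both intervals. Over 21 alternative ways of processing, described below, Snai1 ran from -0.12 to -0.037 and Snai2 from 0.0016 to 0.10. Neither passed the test in any of them.

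Twist1, the basic helix-loop-helix factor of cranial and limb mesenchyme, measured 27.8, 28.9, 26.3 and 24.2 CPM on col1, against 17.7, 21.4, 18.6 and 21.9 CPM on col1-ACLP. All col1-ACLP libraries lay below all col1 libraries. The log2 fold change was -0.43 (SE 0.091, adjusted p = 0.00118 by edgeR's quasi-likelihood test), a fall of 25.7%. Twist2 had only 13 to 54 counts in the col1 and col1-ACLP libraries and spread widely, from 0.450 to 1.41 CPM on col1 and from 0.461 to 1.16 CPM on col1-ACLP. Its 95% confidence interval, -1.35 to 0.82 (log2), holds both a fall as large as that of any other factor and a rise, so these libraries give no direction for it. Twist2 also shares its region with Gm29100 on the other strand, whose counts were 37.0% of those of Twist2, and the strand setting of the counting is not given in the sources used here. Genes that overlap the other factors had at most 1.92% of the counts of the factor.

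Sox4, the most abundant factor per length, measured 525, 534, 502 and 565 CPM on col1, against 433, 412, 434 and 406 CPM on col1-ACLP. The groups did not overlap. The log2 fold change was -0.34 (SE 0.047, adjusted p = 7.02e-06 by edgeR's quasi-likelihood test), a fall of 20.8%.

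**Figure D2:**
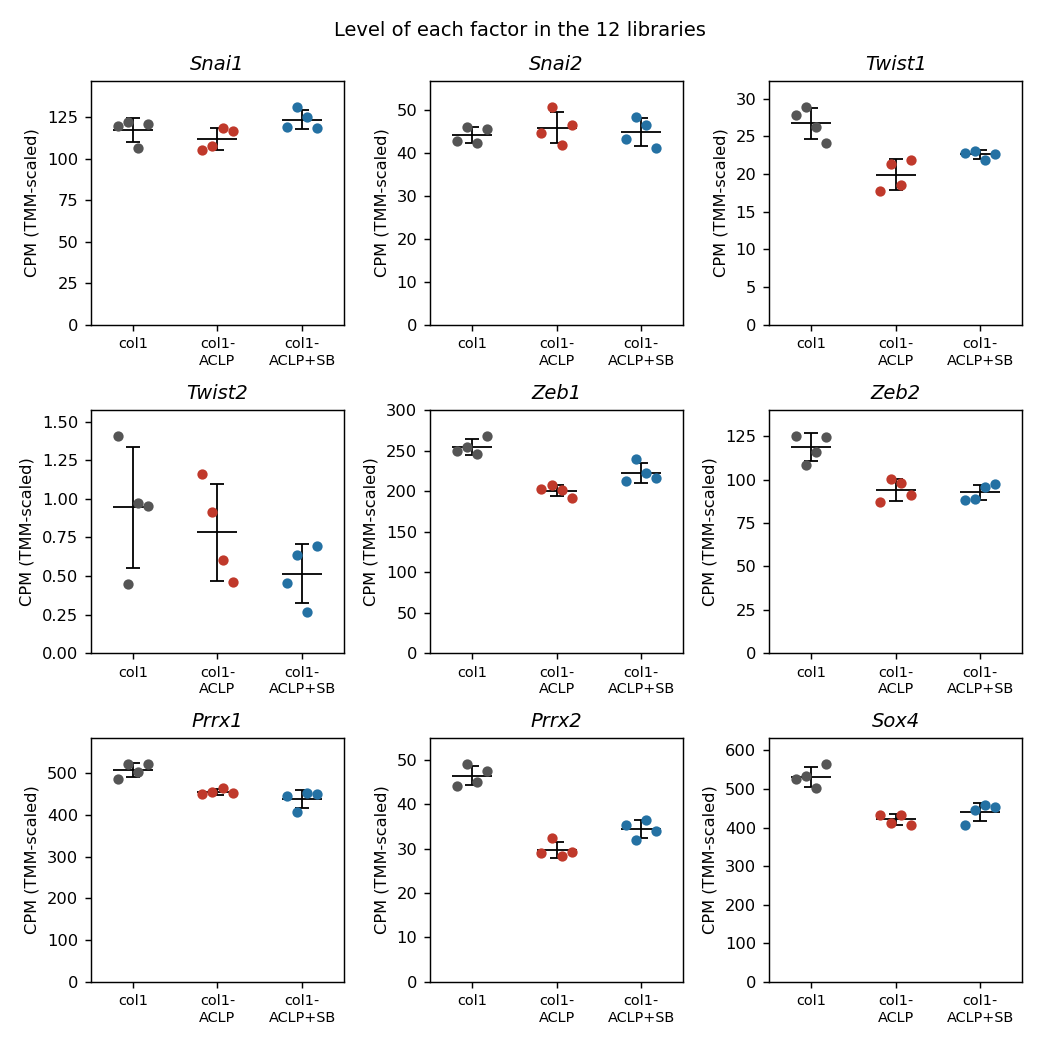
CPM with TMM scaling for each factor in 12 libraries, 1 point per library, with the mean and SD (n = 4) of each group as black marks and every vertical axis starting at 0. The col1-ACLP points lie below all col1 points in Twist1, Zeb1, Zeb2, Prrx1, Prrx2 and Sox4, and the groups overlap in Snai1, Snai2 and Twist2.

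To ask whether these levels depended on ALK5 kinase activity, cells on col1-ACLP+SB were compared with both other groups. Against col1, 5 of the 9 factors were lower (Prrx2, Zeb2, Sox4, Prrx1 and Zeb1) and 0 higher, where 4.54% of all tested genes were lower and 4.6% higher. Among genes of at least 10 CPM these were 7.03% and 7.14%. None of the 5 was past 0.58, which 1.01% of genes were in the lower direction. In these 5 and in Twist1, every col1-ACLP+SB library lay below every col1 library, as was the case for 6.32% of all tested genes. The median log2 fold change of the 9 was -0.24, against 0.0046 over all tested genes. The comparison shares its 4 col1 libraries with the one above, so it is not separate evidence for a lower level.

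Prrx2 measured 35.4, 31.9, 36.4 and 33.9 CPM on col1-ACLP+SB, below the col1 libraries, and its log2 fold change was -0.43 (SE 0.072, adjusted p = 1.40e-04 by edgeR's quasi-likelihood test). Zeb2 measured 88.5, 89.1, 95.7 and 97.2 CPM, and its log2 fold change was -0.36 (SE 0.060, adjusted p = 1.60e-04). In both genes every col1-ACLP+SB library lay below every col1 library. Sox4 measured 407, 446, 458 and 454 CPM (log2 fold change -0.27, SE 0.047, adjusted p = 2.54e-04 by edgeR's quasi-likelihood test), and Prrx1 measured 446, 406, 452 and 449.6 CPM (log2 fold change -0.21, SE 0.044, adjusted p = 0.00146). All 8 of these libraries lay below the lowest col1 library of the gene. Zeb1 measured 212, 241, 223 and 216 CPM (log2 fold change -0.19, SE 0.049, adjusted p = 0.0108 by edgeR's quasi-likelihood test). Without col1 replicate 4 its adjusted p was 0.0588 (log2 fold change -0.17), and without col1-ACLP+SB replicate 1 it was 0.0536 (-0.17). Over all 21 alternatives the log2 fold change ran from -0.23 to -0.17.

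Twist1 measured 22.9, 23.1, 21.8 and 22.7 CPM on col1-ACLP+SB, all below col1, and did not pass the test (log2 fold change -0.24, SE 0.090, adjusted p = 0.103 by edgeR's quasi-likelihood test). Snai1 measured 119, 131, 125 and 119 CPM and Snai2 measured 43.1, 48.4, 46.6 and 41.2 CPM. Their log2 fold changes were 0.075 (95% confidence interval -0.043 to 0.19) and 0.022 (-0.13 to 0.17). Twist2 had 14 to 21 counts per library here, and its log2 fold change of -0.89 had a 95% confidence interval of -1.997 to 0.22.

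**Figure D3:**
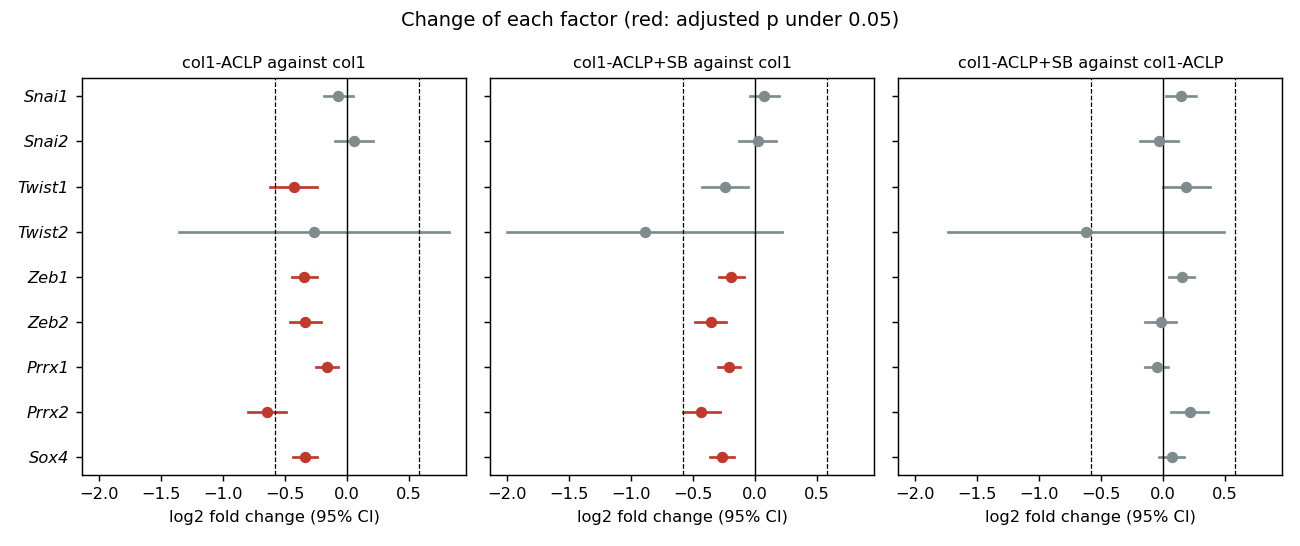
Log2 fold change of each factor with its 95% confidence interval from the edgeR fit in the 3 comparisons, with dashed lines at 0.58 and -0.58 and red points for an adjusted p under 0.05. The 6 red points of col1-ACLP against col1 and the 5 of col1-ACLP+SB against col1 are left of 0, and the comparison of the ACLP groups has none.

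Against col1-ACLP, 0 of the 9 factors passed the test with SB431542 in either direction, where 0.571% of all tested genes were higher and 0.905% lower. At an unadjusted p under 0.05, 3 of the 9 were higher (Zeb1, Prrx2 and Snai1), as were 6.19% of all tested genes, and DESeq2 called 1, Zeb1, at an adjusted p of 0.0472. Zeb1 and Snai1 were above col1-ACLP in every col1-ACLP+SB library, as was the case for 3.65% of all tested genes. Their log2 fold changes were 0.15 (95% confidence interval 0.047 to 0.25, adjusted p = 0.146 by edgeR's quasi-likelihood test) and 0.14 (0.024 to 0.26, adjusted p = 0.261). Prrx2 was at 0.21 (0.061 to 0.36, adjusted p = 0.167) and Twist1 at 0.18 (-0.0042 to 0.37, adjusted p = 0.409). Twist1 was called against col1 on col1-ACLP and not on col1-ACLP+SB, and this last value is the test of that difference. Zeb2 (-0.021, 95% confidence interval -0.15 to 0.10), Prrx1 (-0.053, -0.14 to 0.037), Sox4 (0.067, -0.030 to 0.16) and Snai2 (-0.035, -0.19 to 0.12) each had an interval that holds 0.

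Because members of a family have overlapping functions, the share of the less abundant paralog in the FPKM of its pair was also described. The permutation tests, added after the values had been seen, compared the mean log2 ratio of the paralogs' FPKM between groups, not the share itself. Prrx2 made up 34.0 ± 0.467% of Prrx1 and Prrx2 on col1 (SD, n = 4), 26.9 ± 1.26% on col1-ACLP and 30.7 ± 0.595% with SB431542. The 3 groups did not overlap in this share. Each of the 3 comparisons had an exact two-sided permutation p of 0.0286, the smallest that 4 against 4 libraries can give, and an adjusted p of 0.114 over the 12 paralog tests. When 4 pairs of a SNAIL with a ZEB gene were added, 24 tests in all, the adjusted p was 0.0762. None passed 0.05 under either count of tests. With a smallest possible p of 0.0286, a test could pass only if most tests of its family reached that minimum too. The adjusted values therefore cannot decide on the Prrx pair. Zeb2 made up 19.1 ± 1.04% of Zeb1 and Zeb2 on col1 and 19.2 ± 0.874% on col1-ACLP (exact permutation p = 0.886), and Snai2 made up 23.2 ± 0.820% of its pair on col1 and 24.8 ± 2.22% on col1-ACLP (exact permutation p = 0.286). Twist2 made up 1.79 ± 0.728% of its pair on col1 and 2.02 ± 0.929% on col1-ACLP (exact permutation p = 0.743). With SB431542, Zeb2 made up 17.5 ± 1.17% of its pair (exact permutation p = 0.0857 against each other group), Snai2 22.5 ± 0.546% (exact permutation p = 0.229 against col1 and 0.114 against col1-ACLP) and Twist2 1.15 ± 0.410% (exact permutation p = 0.229 and 0.114). All of these had an adjusted p of at least 0.196 over the 12 paralog tests, and of at least 0.137 over the 24 tests.

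**Figure D4:**
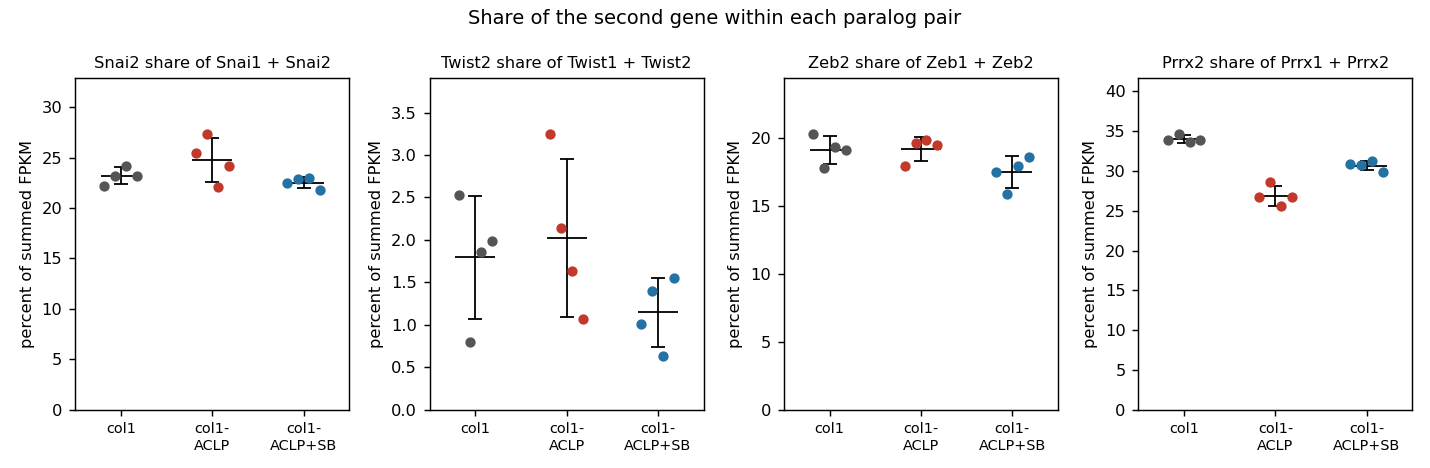
Percent of the summed FPKM of each paralog pair that came from Snai2, Twist2, Zeb2 or Prrx2, 1 point per library, with the mean and SD (n = 4) of each group and axes starting at 0. The Prrx2 share separates into 3 levels (34.0%, 26.9% and 30.7% on average), while the Snai2, Twist2 and Zeb2 shares on col1 and col1-ACLP overlap.

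The SNAIL and ZEB genes were then set side by side as a description, since these pairs were picked because the ZEB and not the SNAIL genes had been called lower. Their tests are among the 24 above, whose adjusted values cannot decide on single pairs, and none passed. Zeb1 made up 53.2 ± 0.705% of Snai2 and Zeb1 on col1 and 46.3 ± 1.94% on col1-ACLP, so their order by FPKM turned at the deposited gene lengths. With SB431542 the share of Zeb1 was 49.5 ± 0.992%. Those lengths are 10266 bases for Zeb1 and 2021 bases for Snai2, and with other lengths the order might not turn. Zeb1 made up 25.6 ± 0.970% of Snai1 and Zeb1 on col1, 22.1 ± 1.43% on col1-ACLP and 22.2 ± 0.277% with SB431542.

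The genes around these factors were described from lists of partners, relatives and targets. TWIST proteins pair with E proteins (Tcf3, Tcf4, Tcf12) and are held off by ID proteins, of which 6 genes of 7 were tested. On col1-ACLP, 0 of the 6 were higher and 1 was lower, Id2, at 26.6 ± 2.68 CPM on col1 (SD, n = 4) and 19.4 ± 2.68 CPM on col1-ACLP (log2 fold change -0.46, adjusted p = 0.0108 by edgeR's quasi-likelihood test). Of 14 corepressors used by SNAIL and ZEB proteins, 1 was higher and 1 lower. Ajuba, a LIM protein that binds SNAIL proteins, was higher (log2 fold change 0.24, adjusted p = 0.00115), and its relative Limd1 was lower (-0.24, adjusted p = 0.00359). Of 16 enzymes that turn over or stabilise these proteins, 2 were higher and 0 lower. These were Lats2, a Hippo pathway kinase (0.31, adjusted p = 0.00164), and Gsk3b, a kinase that marks SNAI1 for degradation (0.22, adjusted p = 0.00256). Over all tested genes, 9.52% were called higher and 8.41% lower. With SB431542, Limd1 stayed lower (-0.31, adjusted p = 4.90e-04) and Lats2 higher (0.23, adjusted p = 0.0341) against col1, while Id2 (-0.20, adjusted p = 0.412), Ajuba (0.098, adjusted p = 0.294) and Gsk3b (0.069, adjusted p = 0.506) did not pass the test. None of the 3 lists had a gene called against col1-ACLP, a comparison in which 0.571% of all tested genes were higher and 0.905% lower, so a count of 0 says little about lists of this size.

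Of 15 close relatives of the factors, 14 were in the table and 3 (Scx, Shox2 and Sox12) were tested. On col1-ACLP, 1 of the 3, Scx, was higher and 0 lower, where 9.52% and 8.41% of all tested genes were. Shox2 (log2 fold change -0.18, adjusted p = 0.361 by edgeR's quasi-likelihood test) and Sox12 (-0.026, adjusted p = 0.979) did not pass the test. Snai3, Scrt1, Scrt2, Sox11, Hand1, Hand2, Tcf15, Msc and Alx1 had no count in any library. Scx, the tendon bHLH factor related to TWIST proteins, rose from 4.65 ± 0.643 CPM on col1 to 22.5 ± 3.74 CPM on col1-ACLP (log2 fold change 2.27, SE 0.143, adjusted p = 7.14e-12 by edgeR's quasi-likelihood test), and was at 16.9 ± 2.71 CPM with SB431542 (1.86 against col1, adjusted p = 6.81e-10). Scx lies within the region of Bop1 on the other strand, which was at 52.6 CPM on col1, against 71.4 CPM on col1-ACLP, so part of the counts may be shared.

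Among 32 tested genes of 36 other mesenchymal transcription factors, 4 (12.5%) were higher and 6 (18.8%) lower on col1-ACLP, where 9.52% and 8.41% of all tested genes were (14.8% and 12.5% at 10 CPM or more), and their median log2 fold change was -0.13. Gli1, a target and effector of Hedgehog signaling, rose from 2.47 ± 0.500 to 5.05 ± 0.449 CPM (1.03, adjusted p = 5.27e-04 by edgeR's quasi-likelihood test), and Foxd1, a forkhead factor of stromal progenitors, from 32.4 ± 2.26 to 64.2 ± 1.60 CPM (0.99, adjusted p = 1.31e-10). The odd-skipped factors of connective tissue fell, Osr2 by 1.03 (adjusted p = 8.88e-06) and Osr1 by 0.63 (adjusted p = 1.95e-07) on the log2 scale. With SB431542, 3 (9.38%) were higher and 7 (21.9%) lower against col1, where 4.6% and 4.54% of all tested genes were (7.14% and 7.03% at 10 CPM or more). Gli1 was at 0.86, Foxd1 at 0.77, Osr2 at -0.63 and Osr1 at -0.36. Against col1-ACLP, 0 of the 32 were called, where 0.571% of all tested genes were higher and 0.905% lower. Of all 982 tested genes with a transcription factor family in the table, the 9 factors among them, 68 (6.92%) were higher and 105 (10.7%) lower on col1-ACLP, and 28 (2.85%) were higher and 62 (6.31%) lower with SB431542 against col1.

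Of 31 epithelial genes that fall when epithelial cells turn mesenchymal, 8 were tested, at 0.367 to 3.29 CPM on average over the 12 libraries, and 0 were called in any of the 3 comparisons. On col1-ACLP their median log2 fold change was -0.27, with Krt8 (-1.22), Krt7 (-0.99), Cldn1 (-0.82), Rab25 (-0.33), Muc1 (-0.21) and Patj (-0.079) below 0 and Jup (0.21) and Cdh1 above it. Cdh1, the gene of E-cadherin and the classical target of SNAIL and ZEB repressors, was at 2.23 ± 0.301 CPM on col1, against 2.96 ± 0.639 CPM on col1-ACLP (log2 fold change 0.40, adjusted p = 0.343 by edgeR's quasi-likelihood test). At these levels a modest difference may not have been detectable. Of 20 mesenchymal genes that rise in that transition, 18 were tested, of which 7 (38.9%) were higher and 4 (22.2%) lower on col1-ACLP, against 14.8% and 12.5% of all tested genes of at least 10 CPM and 9.52% and 8.41% at any level, with a median log2 fold change of -0.033. Acta2, smooth muscle actin, rose from 503 ± 29.04 to 1140 ± 115 CPM (1.18, adjusted p = 5.57e-14), and Postn, the matrix protein periostin, from 306 ± 10.9 to 620.1 ± 25.5 CPM (1.02, adjusted p = 1.02e-13). Lum, the collagen-binding proteoglycan lumican, fell from 20.8 ± 2.14 to 6.12 ± 1.17 CPM (-1.76, adjusted p = 7.78e-10), and S100a4 from 15.1 ± 2.09 to 10.7 ± 0.612 CPM (-0.50, adjusted p = 0.00299). The genes of this list therefore moved in both directions while no factor was higher. With SB431542, 6 were higher and 4 lower against col1, where 4.6% and 4.54% of all tested genes were (7.14% and 7.03% at 10 CPM or more). Acta2 was at 0.94, Postn at 0.74, Lum at -1.47 and Cdh11, a mesenchymal cadherin, at -0.18. Against col1-ACLP, 4 of the 18 were lower and 0 higher, where 0.905% and 0.571% of all tested genes were (1.59% and 0.939% at 10 CPM or more). The largest falls were those of Col5a2, a fibrillar collagen chain (-0.30, adjusted p = 4.58e-04 by edgeR's quasi-likelihood test), and Postn (-0.28, adjusted p = 0.00350).

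**Figure D5:**
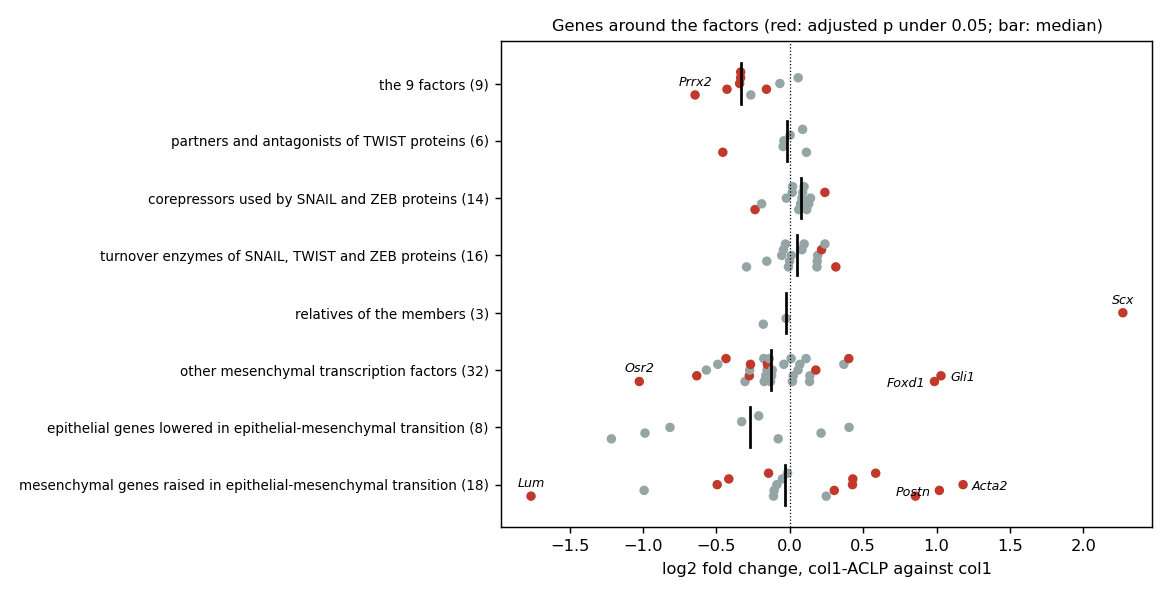
Log2 fold change of col1-ACLP against col1 for the 9 factors and for the tested genes of 7 lists (number tested in brackets), with red points for an adjusted p under 0.05 and a bar at each median. The bar of the 9 factors is at -0.34, and those of the 7 lists lie between -0.27 and 0.078.

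Finally, for each factor the 2 genes with the most similar pattern over the 12 libraries were found among 10437 tested genes of at least 5 CPM, or 10438 for Twist2, by Pearson's r of log2 CPM. This r is a description, since the libraries share their group and its preparation. The patterns of Zeb1 and Cd82, a tetraspanin (r = 0.985), and of Zeb1 and Ifi30, a lysosomal thiol reductase (r = 0.979), were the closest of Zeb1. Prrx2 was closest to Igf2bp2, an mRNA-binding protein (r = 0.983), and Lrrn4cl (r = 0.980), Sox4 to the basement membrane genes Nid1 and Smoc2 (r = 0.9747 and 0.9745), and Zeb2 to Hsdl2 (r = 0.972) and Fam102b (r = 0.943). Prrx1 was closest to Plat, tissue plasminogen activator (r = 0.967), and Kif16b (r = 0.963), and Twist1 to Rbpms (r = 0.922) and Nlgn2 (r = 0.919). The factors that had not passed the test had looser matches, with r from 0.851 to 0.887: Snai1 with Polrmt and H1f3, Snai2 with Dcun1d3 and Casp2, and Twist2 with Crebl2 and Gm12338. A difference between groups by itself raises r with other genes that differ, so this contrast is not separate from the calls. No factor was among the 2 closest genes of another factor.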

How the data were processed

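Poly(A) RNA of 12 libraries was sequenced by the authors as 150-bp paired-end reads and mapped to GRCm39 with HISAT2, which the sample records pair with mm10. The coordinates in the table are those of GRCm39. The deposited values are raw read counts for each gene, with no normalization by the authors. The counting tool, its strand setting and its handling of reads on overlapping or similar genes are not given in the sources used here. Totals were 29246154 to 52201922 counts, and p-values measure the spread between libraries.

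Differential expression was computed on the counts with edgeR 4.0.16 under R 4.3.3 (filterByExpr, TMM factors, glmQLFit and glmQLFTest, group as the only term, all 12 libraries in 1 fit), with Benjamini-Hochberg adjustment over 16465 genes and a threshold of 0.05. The standard error is the log2 fold change divided by the square root of F. FPKM are CPM with TMM scaling per kilobase of the deposited gene length. DESeq2 1.42.0, limma-voom (limma 3.58.1), other size factors and filters, pairs of groups, a replicate block and each library left out were alternatives, and TMM factors without the top 1% of genes were added after seeing the data. Sequences were read with Python 3.11.15 from GRCm39 at GENCODE vM39 starts. The members and lists were chosen with earlier results of these data known. Named list genes were up to 2 per direction and comparison with the largest called change at a mean of at least 1 CPM.

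Simulated counts for 16465 genes, 16040 of them past the filter, were put through the same steps. For col1-ACLP against col1, 65 of 98 genes changed by 1 (log2) and 51 of 94 changed by 0.58 were recovered, with 11 unchanged genes called. For col1-ACLP+SB against col1 these were 65 of 98 and 49 of 94, with 9 called. The pass mark was changed after the results were seen, the procedure being the same: marks set over all changed genes and over genes of at least 1 CPM (64 of 80 and 65 of 80 at a change of 1) were missed, and the mark kept, over genes of at least 10 CPM, was met (54 of 54 in each, with 48 of 52 and 49 of 52 at 0.58). The permutation tests of log2 FPKM ratios within pairs were added after the values had been seen, first 12 and then 12 more on SNAIL and ZEB pairs picked for their contrast. Both adjusted values are given.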

Additional observations from a re-analysis of the deposited data

Results flagged for a closer look

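Among the 27 combinations of a factor and a group of 4 libraries, 2 held a library whose gap to the nearest other library exceeded Dixon's critical value, where chance flags about 5% of groups. Snai1 in col1 replicate 3 was at 106 CPM, against 120.1 to 122 CPM in the other col1 libraries. Prrx1 in col1-ACLP+SB replicate 2 was at 406 CPM, against 446 to 452 CPM in the other libraries of its group. Leaving out either library changed no call on Snai1 or Prrx1, but moved small log2 fold changes that had not passed the test. Without col1 replicate 3, Snai1 went from -0.068 to -0.11 on col1-ACLP against col1 and from 0.075 to 0.032 on col1-ACLP+SB against col1. Without col1-ACLP+SB replicate 2, Snai1 went from 0.075 to 0.047 on col1-ACLP+SB against col1, and Prrx1 went from -0.053 to -0.019 on col1-ACLP+SB against col1-ACLP.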

How the results depend on the processing

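Over 21 alternatives, 558 of 567 values of single factors kept their direction and their side of the threshold. On col1-ACLP against col1, 6 factors were lower and 0 higher under all 21, and on col1-ACLP+SB against col1 4 to 5 were lower and 0 higher. Requiring a log2 fold change past 0.58 left 1 factor lower on col1-ACLP, and 0 with SB431542, which follows from the stricter rule. DESeq2 called 1 factor higher on col1-ACLP+SB against col1-ACLP. Values near 0 that did not pass the test changed sign in 6 cases. Snai2 on col1-ACLP+SB against col1 was at -0.0027 with library size alone and at -0.015 without col1-ACLP+SB replicate 2. Against col1-ACLP, Snai2 was at 0.016 without col1-ACLP replicate 2 and at 0.0023 without col1-ACLP+SB replicate 4, and Zeb2 was at 0.0044 with library size alone and at 0.0099 without col1-ACLP replicate 2. With a library left out, these ran from -0.015 to 0.060, from -0.078 to 0.016 and from -0.058 to 0.0099. The cause was not tested.

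Over all genes, library size alone moved the share of calls that were higher from 53.1% to 38.3% (col1-ACLP against col1) and from 38.7% to 59.0% (col1-ACLP+SB against col1-ACLP). In the last comparison, 94 genes were higher and 149 lower, against 240 and 342 by DESeq2, 180 and 248 with no filter, and 32 to 116 and 66 to 172 with a library left out. Deviations of libraries with the same replicate number correlated from -0.037 to 0.036, which gives no sign of pairing. The replicate block gave 1483 higher and 1270 lower, 691 and 687, and 61 and 116 genes in the 3 comparisons, and 6, 5 and 0 factors lower. Twist2 had 13 to 54 counts per library, and its fitted log2 fold changes had a standard error of 0.527 to 0.540, from the spread between libraries and counting error together.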
